A study of Homo sapiens with 5 samples.

Results

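Transfection of native miR-17 was set against transfection of a negative control in HCT116 cells, a line grown out of a human colorectal carcinoma; the series names the cells used as dicer KO. The comparison rests on 2 of the 5 libraries of the series, 1 for each condition, and each gene is described by its difference of log2(TPM + 1), native miR-17 minus negative control. TPM is the share of a library's transcripts that a gene holds, scaled for transcript length. Of 57773 gene identifiers in the deposited table, 14180 had a mean of at least 1 TPM over the 5 libraries and were kept. With 1 library per condition there is no replicate check, so every value below describes these 2 libraries, and no test is given.

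All 5 libraries came from the same cell background, and each was labelled by what was transfected: native miR-17, methylated miR-17 (13A), native let-7a, methylated let-7a (19A) or the negative control. The cells of the negative control therefore carried the same dicer defect as those given native miR-17. The labels give no dose, no time after transfection, no sequence of any transfected RNA and no nature of the negative control, and they do not say whether the knockout line was 1 clone. Total RNA was depleted of ribosomal RNA and made into stranded libraries. The 4 microRNA libraries share the single control, so the other 3 are given beside a result as levels, or as differences from the same control. The TPM of the let-7a libraries were averaged for each gene, and log2(mean TPM + 1) was used as a second baseline, called the let-7a baseline.

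MicroRNAs guide Argonaute proteins to messenger RNAs, mostly through pairing of the seed, the bases near the 5′ end of the microRNA, to sites in the 3′ untranslated region (3′ UTR). The proteins recruited there shorten the poly(A) tail and lead to decay of the message, so a target's RNA level can fall. miR-17 belongs to the miR-17-92 cluster, which is amplified or overexpressed in several cancers, colorectal carcinoma among them, and its known targets include brakes on the cell cycle, TGF-β pathway members and pro-apoptotic genes. Dicer cuts microRNA precursors into mature microRNAs, so cells without it hold few of their own.

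The mature sequence of miR-17-5p, the strand with the known targets, is shown with its seed (bases 2 to 8) in capitals. It is credited to RefSeq (GRCh38.p14, chr13:91350618-91350640, plus strand), as is that of miR-20a-5p, another member of the cluster, which has the same seed. Whether the transfected RNA had exactly this sequence is not stated in the labels.
hsa-miR-17-5p: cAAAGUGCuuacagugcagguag
hsa-miR-20a-5p: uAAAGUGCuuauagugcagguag

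A match to bases 2 to 8 is a 7mer-m8 site (GCACTTT), a match to bases 2 to 7 followed by A is a 7mer-A1 site (CACTTTA), and a match with both features is an 8mer (GCACTTTA). Matches were searched on the transcript strand in the longest annotated 3′ UTR of each protein-coding gene, and 12023 of the genes kept had one of at least 50 bases. The sites below come from genes on which the results turn. Each shows up to 23 bases of the 3′ UTR opposite the microRNA, with the match in capitals, from the GENCODE 29 transcripts. BTG3, PFKP, CYBRD1, F3 and DUSP2 hold an 8mer and were lower with native miR-17, LIMK1 and CDKN1A were lower with 7mer sites alone, and E2F3 and ETV1 hold an 8mer and were not lower.
BTG3, chromosome 21: tcttaaaaaatatatGCACTTTA
PFKP, chromosome 10: taagttattttatcaGCACTTTA
CYBRD1, chromosome 2: caaacactcctctaaGCACTTTA
F3, chromosome 1: tatgctttacaatctGCACTTTA
DUSP2, chromosome 2: ggggttggaaacttaGCACTTTA
LIMK1, chromosome 7: tgaagctttctcagtGCACTTTg
CDKN1A, chromosome 6: agaagtaaacagatgGCACTTTg
CDKN1A, chromosome 6: cctccccagttcattGCACTTTg
E2F3, chromosome 6: agacagatgacaccaGCACTTTA
ETV1, chromosome 7: tctgccatggactgtGCACTTTA

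The labelled cell type was checked against marker genes. Of 10 colorectal epithelial markers, 8 were above 0 in both libraries (VIL1 and CDX1 were at 0), and their summed level was 9060 TPM with native miR-17 and 7823 TPM in the control. Fibroblast markers summed to 16.2 TPM with native miR-17 and 11.8 TPM in the control, with DCN, LUM, PDGFRA and FAP at 0 in both. Blood and immune markers summed to 7.6 TPM with native miR-17 and 10.4 TPM in the control, with PTPRC, CD3E and HBB at 0 in both, and endothelial markers to 2.4 TPM with native miR-17 and 1.0 TPM in the control, with CDH5 at 0 in both. DICER1 RNA was at 15.9 TPM with native miR-17 and 15.4 TPM in the control, and with no Dicer-proficient cells among the libraries this level does not check the knockout. MIR17HG, the host transcript of the miR-17-92 cluster, was at 0.6 TPM with native miR-17 and 0.1 TPM in the control, below the filter on low values. Mitochondrial transcripts took 10.9% of the TPM with native miR-17 and 12.6% in the control, and cytosolic ribosomal protein genes took 16% with native miR-17 and 14.3% in the control. In bulk samples such as these, fewer cells of a type and less RNA per cell cannot be told apart.

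Over all 14180 genes the median difference was 0.02, with 6598 genes lower and 7309 higher with native miR-17. At least 2-fold lower in TPM + 1 were 246 genes (1.73%), and 240 were at least 2-fold higher (1.69%). This fold is a rule of size and not a test. Just past the rule, 75 genes had differences between -1.1 and -1, and just short of it 60 had differences between -1 and -0.9. On the side of the increases, 68 lay between 1 and 1.1 and 66 between 0.9 and 1. The filter on low values had 231 genes just inside it (means of 1 to 1.1 TPM) and 224 just outside (0.9 to 1 TPM). Of the 246 lower genes 153 were protein-coding, 144 had a mean of at least 5 TPM, and 57 overlapped exons of a second gene on their own strand, so that their values depend on how reads were divided. Against the let-7a baseline, 230 of the 246 were also lower, 109 of them at least 2-fold, with a median of -0.95. Of the 240 higher genes 107 were protein-coding, 206 were also above the let-7a baseline, 67 of them at least 2-fold, with a median of 0.58. Over all 14180 genes, 6299 (44.4%) lay below the let-7a baseline and 7740 above it. At least 2-fold below it were 1.32% and at least 2-fold above it 0.97%. The lower and higher genes were picked on the same native miR-17 values, which raises their counts against this baseline, so nothing is read from those counts.

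**Figure D1:**
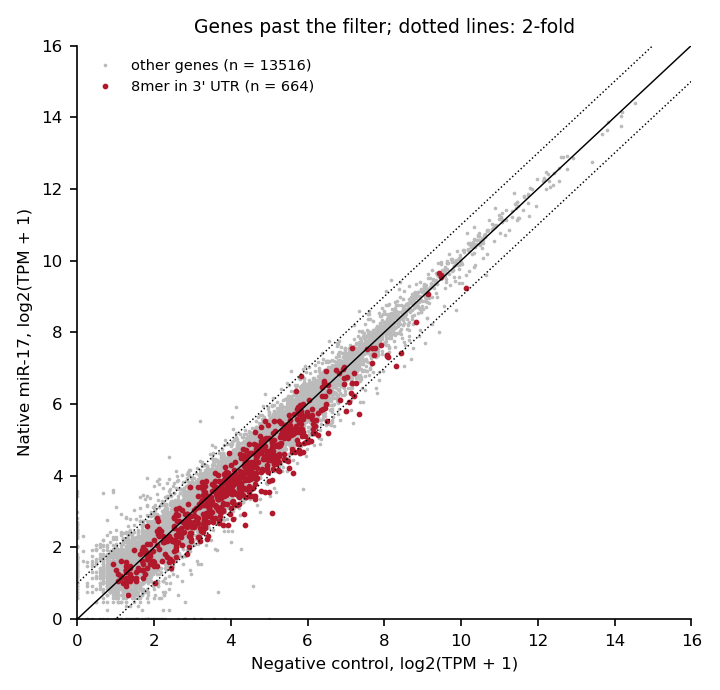
Each point is 1 of the 14180 genes kept, with log2(TPM + 1) in the native miR-17 library on the vertical axis and in the negative control on the horizontal axis; the solid line marks equality and the dotted lines 2-fold. The 664 genes with an 8mer in the 3′ UTR (red) lie mostly under the line of equality, and 46 of them lie on or under the lower dotted line while 0 lie on or above the upper one.

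The 10 protein-coding genes with the largest decreases, among those averaging 20 TPM or more, included ANGPTL4, PFKP, F3, NDRG1, KLF2, ALDOC, EREG, LIMK1 and BHLHE40. LIMK1, the kinase that inactivates the actin-severing protein cofilin, had 22.3 TPM with native miR-17, 19.5 with methylated miR-17, 61.9 with native and 60.3 with methylated let-7a, and 60.7 TPM in the control. Both miR-17 libraries were thus low and the other 3 lay close together, and the difference from the control was -1.40. F3, tissue factor, the cell-surface trigger of blood coagulation, had 16 TPM with native miR-17, 17.5 with methylated miR-17, 46.2 with native and 45.0 with methylated let-7a, and 47.9 TPM in the control, a difference of -1.52. KLF2, a zinc-finger transcription factor with no match in its 3′ UTR, had the same pattern, at 28.5 TPM with native miR-17, 33.5 with methylated miR-17, 82.2 with native and 71.8 with methylated let-7a, and 78.6 TPM in the control. EREG, the EGF receptor ligand epiregulin, had 257 TPM with native miR-17, 254 with methylated miR-17, 758 with native and 677 with methylated let-7a, and 684 TPM in the control (-1.41). ANGPTL4, a secreted inhibitor of lipoprotein lipase, was the lowest of the 10, at 11.3 TPM with native miR-17 and 57.5 TPM in the control (-2.25), but native let-7a also had 12.7 TPM.

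The 10 largest increases under the same rule were SPARC, RP11-1035H13.3, CACUL1, TNNC1, MNAT1, CANX, ENC1, KRTAP2-3, CBX2 and CHAC1. SPARC, a secreted collagen-binding matrix protein, had 44.7 TPM with native miR-17, 38.7 with methylated miR-17, 5.5 with native and 4.3 with methylated let-7a, and 8.2 TPM in the control, a difference of 2.31. TNNC1, cardiac and slow-muscle troponin C, had 121 TPM with native miR-17, 116 with methylated miR-17, 39.9 with native and 40.7 with methylated let-7a, and 46.3 TPM in the control (1.36). ENC1, an actin-binding kelch protein, had 38.7 TPM with native miR-17, 30.8 with methylated miR-17, 15.5 with native and 16.7 with methylated let-7a, and 15.7 TPM in the control (1.25). These 3 genes were high in both miR-17 libraries. In the let-7a libraries ENC1 was close to the control, TNNC1 somewhat below it, and SPARC lower, by -0.50 with native and -0.80 with methylated let-7a. CANX, the endoplasmic reticulum chaperone calnexin, differed: it had 698 TPM with native miR-17, 602 with methylated miR-17, 631 with native and 666 with methylated let-7a, and 287 TPM in the control, so the control stood alone at the low end. CACUL1 (76.1 TPM with native miR-17 and 28.7 TPM in the control) and MNAT1, the assembly factor of the CDK-activating kinase (28.1 TPM with native miR-17 and 10.4 TPM in the control), were likewise high in all 4 microRNA libraries, with differences from the let-7a baseline of 0.00 and 0.19. MNAT1 shares exons with another gene. Over all 240 higher genes the control was the lowest of the 5 libraries for 156, and both miR-17 libraries lay above the other 3 for 109. Over the 246 lower genes the control was the highest for 154, and both miR-17 libraries lay below the other 3 for 160. Over all 14180 genes the control was the highest library for 26.5% and the lowest for 21.1%, and both miR-17 libraries lay below the other 3 for 24.0% and above them for 20.8%. The lower and higher genes were picked on the native miR-17 and control values, which raises these counts, so nothing is read from them.

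Genes with an 8mer match to miR-17-5p in the 3′ UTR were lower with native miR-17, and the weaker the match, the smaller was the median difference. The 664 8mer genes had a median of -0.28, with 503 lower and 153 higher. The median was -0.06 for 2376 genes whose best match was a 7mer-m8, -0.02 for 747 with a 7mer-A1, 0.01 for 2205 with a 6mer (bases 2 to 7) and 0.07 for 6031 with none. At least 2-fold lower were 46 of the 8mer genes (6.93%) and 41 of those with no match (0.68%), against 1.18% of all genes searched. At least 2-fold higher were 0 of the 8mer genes and 69 of those with no match (1.14%), against 0.78% of all genes searched. Among 142 genes with a searched 3′ UTR and a decrease of 2-fold or more, 60.6% held a 7mer or 8mer and 32.4% an 8mer, against 31.5% and 5.52% of all genes searched. Among the 94 with an increase of 2-fold or more, 13.8% held a 7mer or 8mer. Against the let-7a baseline the 8mer median was -0.22 and that of genes with no match 0.06. Against the same control, the 8mer genes had medians of -0.43 with methylated miR-17, -0.04 with native let-7a and -0.04 with methylated let-7a. The median over all searched genes was -0.07 with methylated miR-17, 0.00 with native let-7a and -0.04 with methylated let-7a. Both miR-17 libraries lay below the other 3 for 412 of the 664 8mer genes and for 1065 of the 6031 genes with no match.

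**Figure D2:**
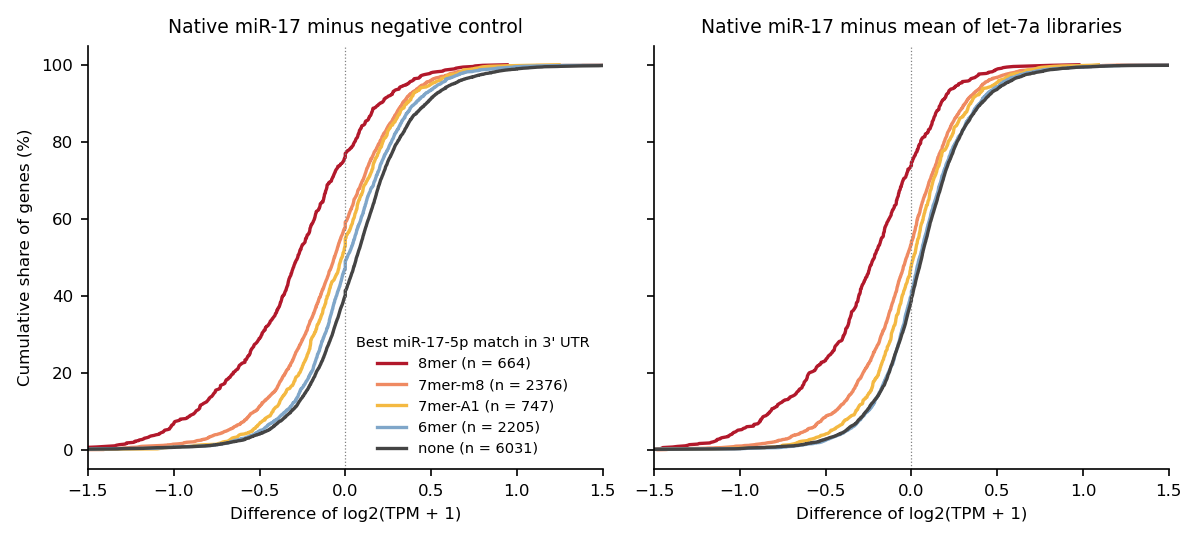
Cumulative share of genes (vertical axis, %) at or below each difference of log2(TPM + 1) (horizontal axis) for native miR-17 minus the negative control (left) and minus the mean of the let-7a libraries (right), by the best miR-17-5p match in the 3′ UTR. The 8mer curve (664 genes) lies furthest to the left in both panels, with medians of -0.28 and -0.22, and the curve of genes with no match (6031) lies furthest to the right on the left-hand panel.

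The number, place and surroundings of the sites were then described. Genes with 2 or more 8mers (48) had a median of -0.36, those with 1 (616) -0.27 and those with none (11359) 0.02. For 8mer genes, the length of the 3′ UTR went with the size of the difference. In the shortest tertile of all 3′ UTRs searched (below 797 bases), the 8mer median was -0.66 over 42 genes, with 11 at least 2-fold lower (26.2%, and 1.18% of all genes searched). It was -0.38 over 143 genes in the middle tertile and -0.23 over 479 genes in the longest. Genes with no match had medians of 0.09, 0.04 and 0.02 in these tertiles, from shortest to longest. The trend was not seen for weaker sites. In the same order the medians were -0.04, -0.07 and -0.07 for 7mer-m8 genes and 0.02, -0.05 and -0.01 for 7mer-A1 genes. By expression, 8mer genes had medians of -0.17 at means of 1 to 5 TPM, -0.30 at 5 to 20 TPM and -0.31 at 20 TPM or more. The pseudocount of 1 understates differences of low genes. Leaving out genes that share exons with another gene gave -0.30 for 560 8mer genes.

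Matches in coding sequence, among genes with no match in the 3′ UTR, had a smaller median: -0.12 for 84 genes with a coding 8mer and -0.02 for 366 with a 7mer-m8. It was 0.02 for 166 genes with a coding 7mer-A1, 0.05 for 811 with a 6mer and 0.08 for 4604 with no coding match. Of the 84, 0 were at least 2-fold lower. Over all genes searched the share was 1.18%, so nothing is read from this count. The 11 genes whose only 8mer was in the 5′ UTR had a median of 0.14. Among genes with a single 7mer or 8mer site that was an 8mer, the 3′ UTR was cut in 3 equal lengths. The median was -0.29 for 102 genes with the site in the first length, -0.32 for 86 in the middle one and -0.32 for 103 in the last. At least 2-fold lower were 2 (1.96%), 8 (9.30%) and 12 (11.7%) of them, against 1.18% of all genes searched. By the share of A and U in the 30 bases on each side, the medians were -0.26, -0.33 and -0.34 for the lowest, middle and highest tertile. The counts at least 2-fold lower ran the other way, at 9 (10.1%), 7 (6.67%) and 6 (6.19%) in the same order. A further 4-base match to bases 13 to 16 of miR-17-5p lay upstream of the site in 12 of these single-8mer genes (median -0.16), and 279 had none (-0.31).

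**Figure D3:**
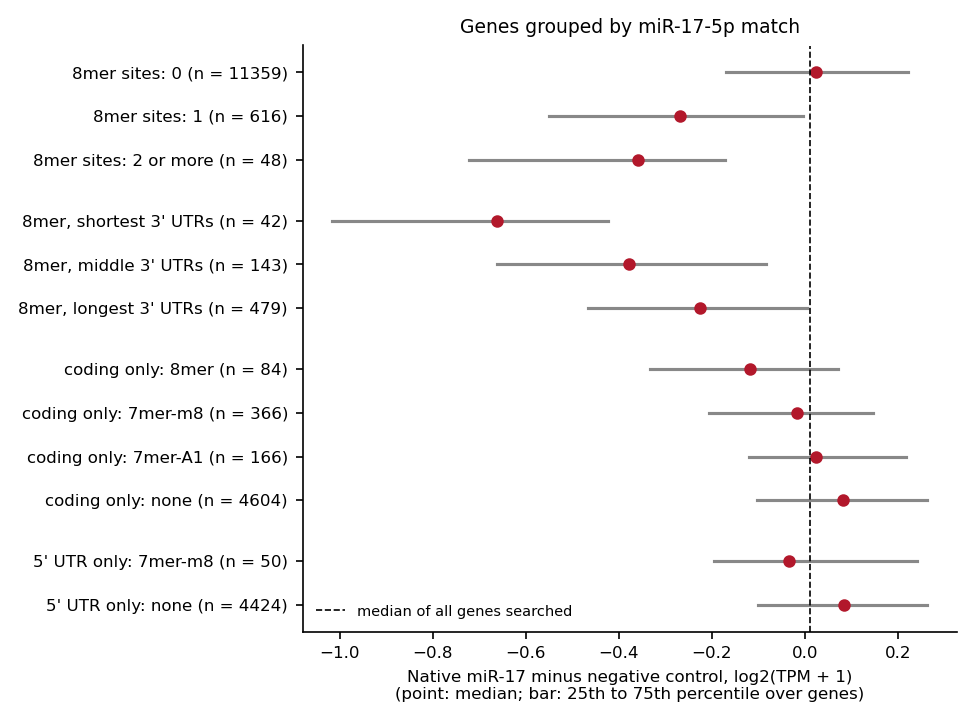
Median (red point) and 25th to 75th percentile over genes (grey bar) of the difference native miR-17 minus negative control for genes grouped by miR-17-5p match; the dashed line is the median of all 12023 genes searched. The bar of the 42 8mer genes with the shortest 3′ UTRs (median -0.66) lies furthest to the left, and genes whose only matches lie in coding sequence or the 5′ UTR have medians nearer the dashed line.

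The base that follows a match to bases 2 to 8, opposite the first base of the microRNA, also went with the size of the difference. Among genes with 1 such match and no other 7mer, the median was -0.31 where it was A (291 genes), -0.17 where it was T (350), -0.10 where it was C (221) and -0.01 where it was G (885). Many of the matches followed by G share their upstream letters, which are those of the Alu repeat, a mobile element present in many human 3′ UTRs.

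The letters TCCCA directly before the match were chosen to mark this context after the sites had been seen. They stood before 466 of the 885 single matches followed by G, and before 8, 6 and 8 of those followed by A, C and T. The 466 genes had a median of 0.05, close to the 0.07 of genes with no match. Past the 2-fold rule were 3 on the low side (0.64%, and 1.18% of all genes searched) and 2 on the high side (0.43%, and 0.78%). The other 419 genes with G had a median of -0.07. Against the let-7a baseline the median was 0.06 for the 466 genes and -0.05 for the 419.

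Sites of other microRNAs were searched among genes with no 7mer or 8mer of miR-17-5p. The 8mer medians there were 0.01 for miR-17-3p, the strand opposite miR-17-5p (297 genes), -0.03 for miR-18a-5p (93), 0.01 for miR-19a-3p (414), 0.00 for miR-92a-3p (212) and 0.06 for let-7a-5p (257). Over all 8236 genes with no 7mer or 8mer of miR-17-5p the median was 0.05. When 15928 heptamers, each present in at least 100 of the searched 3′ UTRs, were ranked by the mean difference of the genes that hold them, centred within 10 bins of 3′ UTR length, CACTTTA ranked 3 from the lowest (1889 genes, -0.11), TGCACTT 4 (1989 genes, -0.11) and GCACTTT 6 (3040 genes, -0.10). Rank 1 went to GACGCCG, held by 111 genes. Rank 2 went to TATACGG, held by 104 genes, and rank 5 to ATATCGA, held by 162, and these 3 do not match the seed.

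A list of 102 genes commonly named as targets of miR-17 or its family was described next, and 97 of them passed the filter. Of the 97, 89 were lower with native miR-17, 7 were higher and 1 was equal, with a median of -0.51. At least 2-fold lower were 19 (19.6%, and 1.73% of all genes). Both miR-17 libraries lay below the other 3 for 78 of them (80.4%, and 24.0% of all genes), and the control was the highest library for 56 (57.7%, and 26.5% of all genes). The median was -0.41 against the let-7a baseline. An 8mer was found in 46 (median -0.75), a 7mer-m8 in 45 (-0.46) and neither type of site in 6 (-0.40), among these TNFSF12, a TNF-family ligand at 10.1 TPM with native miR-17 and 23.6 TPM in the control.

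Cell cycle regulators and pocket proteins had a median of -0.53 over 12 genes. BTG3, an antiproliferative factor with 1 8mer, had 24.4 TPM with native miR-17, 29.2 with methylated miR-17, 66.3 with native and 62.4 with methylated let-7a, and 58.4 TPM in the control (-1.23). CDKN1A, the cyclin-dependent kinase inhibitor p21, had 188 TPM with native miR-17, 191 with methylated miR-17, 483 with native and 442 with methylated let-7a, and 431 TPM in the control (-1.20). For both genes the miR-17 libraries stood apart at the low end. CCNG2, an unconventional cyclin linked to cell cycle arrest, had 30.5 TPM with native miR-17 and 66.7 TPM in the control, and RBL2, the pocket protein p130, had 11.6 TPM with native miR-17 and 22.1 TPM in the control. RB1, the retinoblastoma protein, had 24.9 TPM with native miR-17 and 32.1 TPM in the control. E2F1, an activator of S-phase genes and one of the first targets described for the cluster, had 6.9 TPM with native miR-17 and 9.0 TPM in the control (-0.34). E2F3 (29.2 TPM with native miR-17 and 26.8 TPM in the control) and RBL1_1, an entry of the pocket protein p107 (4.7 TPM with native miR-17 and 4.6 TPM in the control), were not lower.

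TGF-β and BMP signalling targets had the smallest median of the 7 role groups, -0.25 over 8 genes, and it was -0.03 against the let-7a baseline. BAMBI, a decoy receptor, had 28.3 TPM with native miR-17, 30.1 with methylated miR-17, 23.2 with native and 27.2 with methylated let-7a, and 52.4 TPM in the control. Its difference of -0.87 thus went with a high control, and against the let-7a baseline it was 0.16. SMAD7, an inhibitory SMAD, was likewise at 11.3 TPM with native miR-17 and 14.2 TPM in the control, but at 5.4 and 7.6 TPM with native and methylated let-7a, a difference of 0.71 from that baseline. The receptors BMPR2 (12.6 TPM with native miR-17 and 19.5 TPM in the control) and TGFBR2 (27.3 TPM with native miR-17 and 37.2 TPM in the control) were below both baselines, by -0.31 and -0.30 against let-7a. SMAD6, the other inhibitory SMAD, was not lower, at 7.5 TPM with native miR-17 and 6.7 TPM in the control.

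Survival, apoptosis and PI3K genes had a median of -0.30 over 9 genes. BNIP2, which binds BCL2, was the lowest, at 24.3 TPM with native miR-17 and 46.9 TPM in the control (-0.92). PHLPP2 and PHLPP1, phosphatases that act on the kinase AKT, had 5.1 and 6.7 TPM with native miR-17 and 8.8 and 10.3 TPM in the control. BCL2L11, the pro-apoptotic protein BIM, had 24.4 TPM with native miR-17 and 29.8 TPM in the control (-0.28). TP53INP1, a stress-induced p53 partner, was not lower, at 53.3 TPM with native miR-17 and 47.4 TPM in the control.

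Kinases, phosphatases and cytoskeletal regulators had a median of -0.60 over 16 genes, 15 of them lower. Beside LIMK1, DUSP2, a phosphatase of MAP kinases, had 6.7 TPM with native miR-17, 10 with methylated miR-17, 19.7 with native and 18.7 with methylated let-7a, and 19.3 TPM in the control (-1.40). MINK1, a STE20-family kinase, had 29.9 TPM with native miR-17 and 63.1 TPM in the control (-1.05), and MAP3K2, a MAP kinase kinase kinase with 6 sites, had 9.6 TPM with native miR-17 and 20.2 TPM in the control (-1.0). RPS6KA5, the kinase MSK1, holds 12 sites in a 3′ UTR annotated at 24212 bases, the most of the targets named here, and was at 2.6 TPM in both libraries.

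Transcription and chromatin regulators had a median of -0.54 over 18 genes. KLF11, a TGF-β-inducible zinc-finger factor, had 5.2 TPM with native miR-17, 5.2 with methylated miR-17, 11.4 with native and 11.6 with methylated let-7a, and 14.1 TPM in the control (-1.28). ZNFX1, a helicase-like zinc-finger protein with 4 sites, had 20.3 TPM with native miR-17 and 44.2 TPM in the control (-1.09), ELK3, an ETS factor, had 46.3 TPM with native miR-17 and 98.3 TPM in the control (-1.07), and NCOA3, a nuclear receptor coactivator, 21.2 TPM with native miR-17 and 40.6 TPM in the control (-0.91). STAT3 had 57.5 TPM with native miR-17 and 83.0 TPM in the control, and HIF1A, the oxygen-regulated subunit of the hypoxia factor, 110 TPM with native miR-17 and 162 TPM in the control. ETV1, an ETS factor, was not lower, at 10.7 TPM with native miR-17 and 9.0 TPM in the control, with a difference of -0.0062 from the let-7a baseline.

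Autophagy, trafficking and membrane genes had the largest median decrease, -0.62 over 14 genes, and -0.70 against the let-7a baseline. GPR137B, a lysosomal membrane protein, had 16.6 TPM with native miR-17, 18.3 with methylated miR-17, 30.5 with native and 32.4 with methylated let-7a, and 43.0 TPM in the control (-1.32). FYCO1, an adaptor that links autophagosomes to kinesin, had 9.9 TPM with native miR-17 and 21.7 TPM in the control (-1.06), RAB5B, an early endosome GTPase, 73.8 TPM with native miR-17 and 146 TPM in the control (-0.98), and SQSTM1, the autophagy receptor p62, 156 TPM with native miR-17 and 274 TPM in the control (-0.80). ABCA1, the cholesterol exporter, was not lower, at 2.8 TPM with native miR-17 and 1.8 TPM in the control. Secreted, surface and metabolic genes had a median of -0.59 over 20 genes. PFKP, the platelet-type phosphofructokinase of glycolysis, had 52.1 TPM with native miR-17, 56.8 with methylated miR-17, 110 with native and 126 with methylated let-7a, and 161 TPM in the control (-1.61). ENPP5, an ectonucleotide phosphodiesterase family member with 2 8mers, had 10.7 TPM with native miR-17 and 28.5 TPM in the control (-1.33), ITGB8, an integrin that activates TGF-β, had 5.2 TPM with native miR-17 and 13.0 TPM in the control (-1.18), and APP, the amyloid precursor protein, 267 TPM with native miR-17 and 485 TPM in the control (-0.86). THBS1, an inhibitor of blood vessel growth, was not lower, at 7.0 TPM with native miR-17 and 6.7 TPM in the control. PFKP shares exons with another annotated gene.

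**Figure D4:**
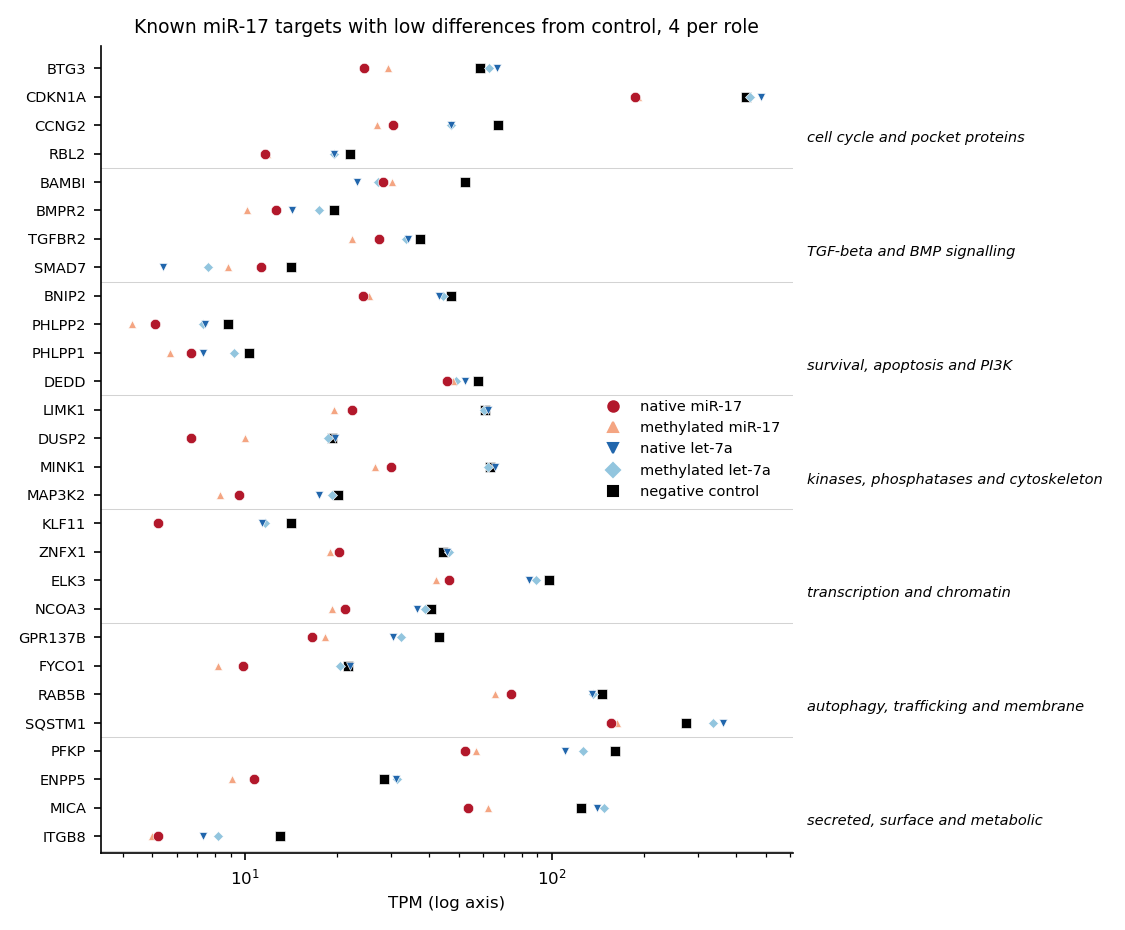
TPM (log axis) of 4 known targets with low differences in each role group, in the 5 libraries: native miR-17 (red circles), methylated miR-17 (orange triangles), native let-7a (dark blue triangles), methylated let-7a (light blue diamonds) and the negative control (black squares). For most genes the miR-17 libraries lie left of the other 3; BAMBI and SMAD7 are exceptions, with let-7a values at or below those with native miR-17.

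Over all 8mer genes averaging 5 TPM or more, the largest decreases were those of CYBRD1, PRR15, PFKP, F3, SLC5A3_1, DUSP2, CTSA, ENPP5, SEMA4B and KLF11. PFKP, DUSP2, ENPP5 and KLF11 are on the list of known targets, and the others are not. CYBRD1, the duodenal ferric reductase, holds 4 sites and had 6.8 TPM with native miR-17, 7.0 with methylated miR-17, 24.3 with native and 21.9 with methylated let-7a, and 32.8 TPM in the control (-2.12). CTSA, the lysosomal protease cathepsin A, had 35.5 TPM with native miR-17, 35.7 with methylated miR-17, 75.8 with native and 82.6 with methylated let-7a, and 91.6 TPM in the control (-1.34). SLC5A3_1, an entry of a myo-inositol transporter that shares exons with another gene, had 10.7 TPM with native miR-17 and 31.0 TPM in the control, but 9.6 TPM with native let-7a. The 3 8mer genes that were highest relative to the control were SERP1, PAQR3 and EIF4EBP2. EIF4EBP2, a repressor of cap-dependent translation, had 81.9 TPM with native miR-17, 66.7 with methylated miR-17, 45.3 with native and 46.9 with methylated let-7a, and 50.5 TPM in the control (0.69).

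Other gene lists were then described by their medians and counts. Genes of cholesterol and fatty acid synthesis were lower with native miR-17: 32 of 39 were below the control, with a median of -0.43, and 7 were above. At least 2-fold lower were 4 (10.3%, and 1.73% of all genes). The list had medians of -0.40 with methylated miR-17, 0.03 with native let-7a and -0.04 with methylated let-7a against the same control, and both miR-17 libraries lay below the other 3 for 31 of the 39 genes (79.5%, and 24.0% of all genes). MSMO1, a sterol C4 demethylase, had 99.8 TPM with native miR-17, 103 with methylated miR-17, 229 with native and 232 with methylated let-7a, and 231 TPM in the control (-1.20). MVK, mevalonate kinase, had 16.6 TPM with native miR-17 and 39.0 TPM in the control. SREBF2, the transcription factor that drives these genes, was at 175 TPM in both, and TM7SF2, a sterol reductase, was higher, at 53.7 TPM with native miR-17 and 40.5 TPM in the control. A 7mer or 8mer of miR-17-5p was found in 7 of the 38 members searched (MSMO1 and MVK among them), and 0 had an 8mer.

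Genes of glycolysis and hypoxia had the lowest median of all lists, -0.79: 41 of 42 were lower with native miR-17 and 17 at least 2-fold (40.5%, and 1.73% of all genes). The control was the highest of the 5 libraries for 39 of the 42 (92.9%, and 26.5% of all genes), and both miR-17 libraries lay below the other 3 for 22 (52.4%, and 24.0% of all genes). Against the same control the list had medians of -0.80 with methylated miR-17, -0.61 with native let-7a and -0.31 with methylated let-7a, and against the let-7a baseline the native miR-17 median was -0.30. LDHA, lactate dehydrogenase A, had 392 TPM with native miR-17, 530 with native and 749 with methylated let-7a, and 935 TPM in the control. SLC2A1, the glucose transporter GLUT1, had 301 TPM with native miR-17, 236 with native and 406 with methylated let-7a, and 609 TPM in the control. NDRG1, a hypoxia-induced gene, had 77.9 TPM with native miR-17, 119 with native and 165 with methylated let-7a, and 223 TPM in the control. ALDOC, an aldolase, had 153 TPM with native miR-17, 222 with native and 285 with methylated let-7a, and 413 TPM in the control. PFKL, the liver-type phosphofructokinase, was the only member not lower than the control, at 35.4 TPM with native miR-17 and 30.8 TPM in the control, and it differed by -0.0525 from the let-7a baseline.

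Cell cycle genes went both ways. Of 56 genes of G2/M and mitosis, 49 were lower with native miR-17 and 7 higher, with a median of -0.29, and both miR-17 libraries lay below the other 3 for 38 (67.9%, and 24.0% of all genes). KIF23, a kinesin of the central spindle with an 8mer, had 16.9 TPM with native miR-17, 17.3 with methylated miR-17, 45.4 with native and 33.4 with methylated let-7a, and 36.6 TPM in the control (-1.07). WEE1, the kinase that restrains CDK1 and itself a known target, had 8.9 TPM with native miR-17 and 15.6 TPM in the control (-0.75), and CCNB1, cyclin B1, had 163 TPM with native miR-17 and 209 TPM in the control (-0.36). KIF4A was higher than the control, at 27.7 TPM with native miR-17 and 22.2 TPM in the control, but below the let-7a libraries (37.6 and 33.7 TPM). Of 63 genes of G1/S and DNA replication, 44 were higher and 19 lower, with a median of 0.23. Polymerase, clamp and repair genes had a median of 0.32, with 23 of 25 higher, and nucleotide and G1/S regulators -0.05. POLA1, the catalytic subunit of DNA polymerase alpha, had 12.4 TPM with native miR-17, 12.1 with methylated miR-17, 7.6 with native and 7.4 with methylated let-7a, and 6.5 TPM in the control (0.84). TK1, thymidine kinase, had 259 TPM with native miR-17 and 169 TPM in the control (0.61), and CCND1, cyclin D1 and a known target, was lower, at 272 TPM with native miR-17 and 382 TPM in the control (-0.49). Replication-dependent histones passing the filter were higher in 10 of 11 cases (median 0.27), although their transcripts resemble each other, so reads may be shared between them.

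Stress and interferon lists lay above the control. Of 44 ATF4 and unfolded protein response genes, 36 lay above the control, with a median of 0.29, but the list had a median of 0.31 with native let-7a against the same control and 0.04 for native miR-17 against the let-7a baseline. The control was the lowest of the 5 libraries for 26 of them (59.1%, and 21.1% of all genes). CHAC1, an enzyme that breaks down glutathione, had 133 TPM with native miR-17, 119 with methylated miR-17, 104 with native and 63.9 with methylated let-7a, and 59.6 TPM in the control (1.14). NUPR1, a stress-induced nuclear protein, had 85.0 TPM with native miR-17, 100.3 with methylated miR-17, 48.0 with native and 32.8 with methylated let-7a, and 38.8 TPM in the control (1.11). Of 20 cytosolic tRNA synthetases 18 were higher (median 0.30), led by WARS, the tryptophan enzyme, at 152 TPM with native miR-17 and 83.5 TPM in the control. Their median was 0.29 with native let-7a against the same control, and 0.11 for native miR-17 against the let-7a baseline. Of 40 interferon response genes 30 were higher and 9 lower, with a median of 0.24, and 0.02 against the let-7a baseline. IFIT3 had 14.9 TPM with native miR-17, 15.3 with methylated miR-17, 8.4 with native and 7.4 with methylated let-7a, and 5.1 TPM in the control (1.38), and BST2, which tethers virus particles to cells, had 16.8 TPM with native miR-17, 15.3 with methylated miR-17, 5.6 with native and 8.3 with methylated let-7a, and 6.7 TPM in the control. RNA sensors had a median of -0.06 over 9 genes. IRF9, a subunit of the interferon-activated ISGF3 complex that holds an 8mer, was lower, at 14.0 TPM with native miR-17 and 21.5 TPM in the control.

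**Figure D5:**
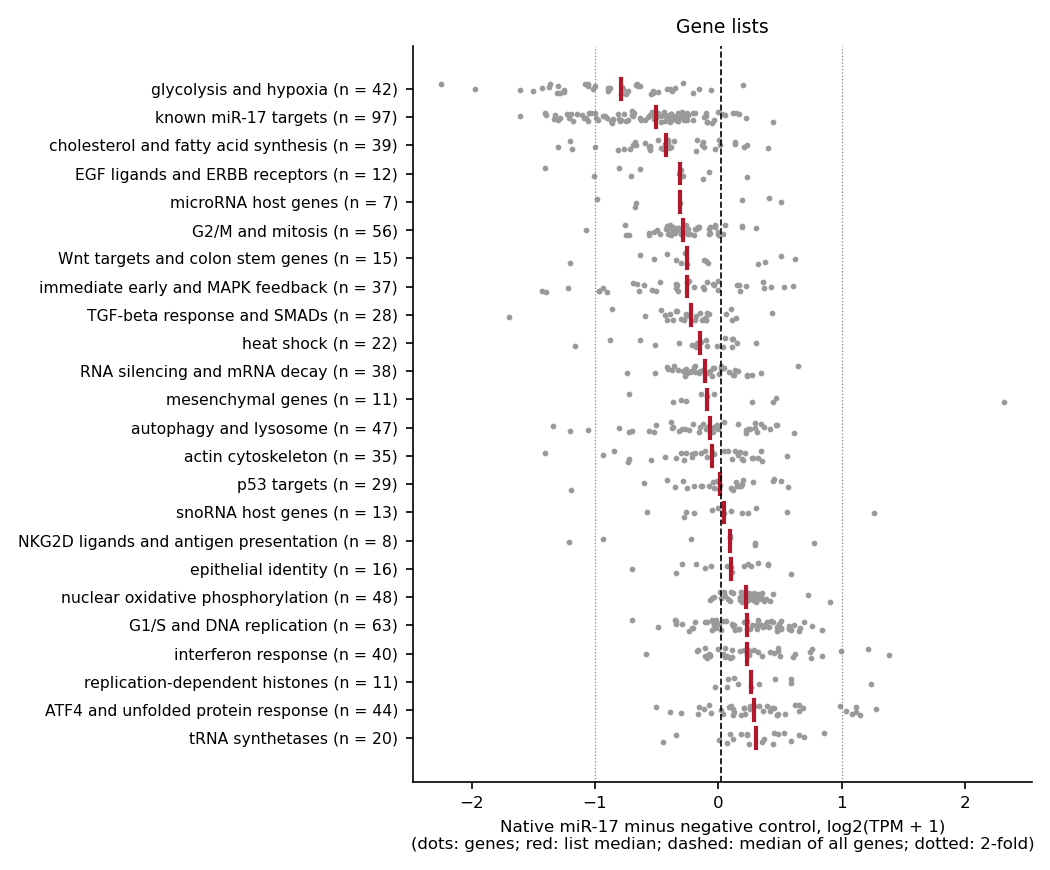
Differences of log2(TPM + 1), native miR-17 minus negative control, for the genes of 24 lists (grey dots), ordered by list median (red bars); the dashed line is the median of all 14180 genes (0.02) and the dotted lines mark 2-fold. Glycolysis and hypoxia (median -0.79), known miR-17 targets (-0.51) and cholesterol and fatty acid synthesis (-0.43) have the lowest medians, and tRNA synthetases (0.30) the highest.

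Signalling lists were mostly lower. Of 12 EGF ligands, receptors and regulators, 11 were lower (median -0.32, and -0.18 against the let-7a baseline). AREG, the ligand amphiregulin, had 237 TPM with native miR-17, 258 with methylated miR-17, 516 with native and 442 with methylated let-7a, and 477 TPM in the control (-1.01). ERBB3, a receptor with 3 sites that shares exons with another gene, had 17.1 TPM with native miR-17 and 28.5 TPM in the control, and ERRFI1, a feedback inhibitor of the EGF receptor, had 427 TPM with native miR-17 and 747 TPM in the control, with 452 TPM with native let-7a. Of 37 immediate early and MAPK feedback genes 27 were lower (median -0.25, and -0.11 against the let-7a baseline). FOSL1, an AP-1 subunit, had 75.5 TPM with native miR-17 and 149 TPM in the control, and ETV4, an ETS factor, was higher, at 173 TPM with native miR-17 and 114 TPM in the control. Of 28 genes of the TGF-β response, 23 were lower (median -0.22), but the control was the highest library for 19 (67.9%, and 26.5% of all genes) and the median against the let-7a baseline was -0.05. ACVR2B, an activin receptor, was higher, at 19.5 TPM with native miR-17 and 14.2 TPM in the control. Of 15 Wnt targets and colon stem genes 11 were lower (median -0.25, and 0.02 against the let-7a baseline). DKK1, a secreted Wnt inhibitor, had 41.7 TPM with native miR-17, 43.4 with methylated miR-17, 155 with native and 98.4 with methylated let-7a, and 97.1 TPM in the control (-1.20).

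Ligands of NKG2D, the activating receptor of natural killer cells, split by gene, with 3 of 8 lower and 5 higher. The lower ones were not MICA and MICB alone. MICA had 53.4 TPM with native miR-17, 62.0 with methylated miR-17, 141 with native and 149 with methylated let-7a, and 125 TPM in the control (-1.21), and MICB had 23.2 TPM with native miR-17 and 45.4 TPM in the control (-0.94). MICA and MICB are close paralogs, so reads may be divided between them. ULBP1, ULBP3 and RAET1L were above the control, at 54.8, 52.0 and 9.8 TPM with native miR-17 and 44.4, 48.6 and 9.1 TPM in the control. RAET1L was however below the let-7a libraries (14.4 and 12.5 TPM), a difference of -0.42 from that baseline. The median of the 8 NKG2D ligands was 0.10 against the control and -0.32 against the let-7a baseline.

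The RNA silencing machinery had a median of -0.04 over 13 genes. AGO2, the Argonaute that cleaves its targets and that holds 4 sites, was the lowest, at 34.5 TPM with native miR-17, 27.1 with methylated miR-17, 54.1 with native and 55.2 with methylated let-7a, and 58.3 TPM in the control (-0.74). Deadenylation and decapping genes had a median of -0.16 over 25. CNOT6L, a deadenylase with an 8mer, had 6.9 TPM with native miR-17 and 10.3 TPM in the control (-0.52), and PAN2, another deadenylase subunit, was higher, at 13.1 TPM with native miR-17 and 8.0 TPM in the control. Of 47 autophagy and lysosome genes 32 were lower (median -0.07). M6PR, the receptor that carries lysosomal enzymes, was at 54.4 TPM with native miR-17, 52.9 with methylated miR-17, 118 with native and 119 with methylated let-7a, and 127 TPM in the control (-1.20), and WIPI1, an autophagosome protein, was higher, at 56.4 TPM with native miR-17 and 36.6 TPM in the control. Actin regulators had a median of -0.055 over 35 genes, with 19 lower and 16 higher, and of 0.058 against the let-7a baseline. LIMK1 and CFL2, cofilin-2, were both lower, the second at 34.1 TPM with native miR-17 and 66.2 TPM in the control. SSH1 and SSH2, the phosphatases that reactivate cofilin, were also lower, at 35.5 and 6.9 TPM with native miR-17 and 64.5 and 12.1 TPM in the control. MYL9 was the furthest above the control, at 157 TPM with native miR-17 and 106 TPM in the control (0.56).

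Nuclear subunits of the respiratory chain were higher in 45 of 48 cases (median 0.22), with NDUFB5 of complex I at 37.6 TPM with native miR-17 and 19.6 TPM in the control. The control was the lowest library for 32 of the 48 (66.7%, and 21.1% of all genes), and the list's median was 0.08 against the let-7a baseline. Cytosolic ribosomal protein genes were higher in 80 of 83 cases (median 0.16, and 0.00 against the let-7a baseline), and all 13 mitochondrially encoded mRNAs were lower (median -0.21, and -0.013 against the let-7a baseline). Both classes take a large share of the TPM, and rescaling the libraries without them left the known target median at -0.52. Targets of p53 had a median of 0.01 over 29 genes, with CDKN1A the lowest and TP53I3, a p53-induced oxidoreductase, the highest, at 33.7 TPM with native miR-17 and 22.5 TPM in the control. Heat shock genes had a median of -0.15 over 22. HSPA8, the constitutive HSP70 with an 8mer, had 602 TPM with native miR-17 and 1110 TPM in the control (-0.88), and HSPA1A and HSPA1B, near-identical copies between which reads cannot be divided with certainty, had 12.6 and 300.4 TPM with native miR-17 and 29.5 and 428 TPM in the control. Epithelial identity genes had a median of 0.10 over 16, and of -0.018 against the let-7a baseline, with the keratin KRT8 at 2856 TPM with native miR-17 and 1902 TPM in the control and the epithelial factor ELF3 lower, at 62.4 TPM with native miR-17 and 102 TPM in the control. Mesenchymal genes had a median of -0.09 over 11, and of -0.018 against the let-7a baseline, with 7 lower and 4 higher, SPARC among the higher ones. The snoRNA host genes had a median of 0.04 over 13, and of -0.18 against the let-7a baseline. SNHG6, at 388 TPM with native miR-17 and 162 TPM in the control, was high in all 4 microRNA libraries. MicroRNA host genes had a median of -0.31 over 7, with 4 lower and 3 higher, and a median of -0.018 against the let-7a baseline.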

How the data were processed

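RNA was measured once in each of 5 libraries. The authors deposited TPM values per gene, to 1 decimal. The build was hg19, per the submitters' processing notes. The aligner, counter and gene annotation are not given in the sources used. All columns sum to nearly the same total, so depth is unknown and no interval or floor is given. TPM are relative to the rest of a library, and a value of 0 was not read as absence.

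From the table, log2(TPM + 1) in the negative control was subtracted from that with native miR-17 for genes that averaged at least 1 TPM over the 5 libraries (Python 3.11.15, pandas 2.3.3, numpy 2.4.6). The pseudocount of 1 understates changes of low genes. 3′ UTRs came from GENCODE 29, which held 90.6% of the 57773 identifiers and uses another build, so no gene coordinates are given. Site searches and summaries were tested on simulated data. The genes compared, the gene lists and the tests were chosen with earlier results of these data known, and support nothing by themselves. Named genes followed a rule: up to 4 targets per role with the lowest difference and every target not lower; in other lists up to 4 members along the median and the most extreme the other way (mean of at least 5 TPM, above 0 in all libraries); the 10 largest changes each way among protein-coding genes averaging at least 20 TPM; and the 10 lowest and 3 highest 8mer genes averaging at least 5 TPM; plus DICER1 and MIR17HG. Named beyond it, with their values seen, were textbook members of the lists: RB1, E2F1, BCL2L11, STAT3, HIF1A, SQSTM1, APP, TNFSF12, SREBF2, LDHA, SLC2A1, CCNB1, TK1 and MICB. Some genes and sequences that the rule names are not reported here.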

Additional observations from a re-analysis of the deposited data

How the results depend on the processing

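With 1 library per condition no replicate could be left out, and depth is unknown. No paired analysis was possible because each condition holds 1 library. Genes at least 2-fold lower numbered 246, and 398 with a pseudocount of 0.1, 83 with 5 and 144 at a mean of at least 5 TPM. Genes at least 2-fold higher numbered 240, with 443 at a pseudocount of 0.1 and 41 at 5. They numbered 88 at a mean of at least 5 TPM, 385 with no filter and 138 against the let-7a mean. The known target median ranged between -0.54 and -0.41 and the 8mer median between -0.30 and -0.21 over all alternatives run (pseudocount, filter, genes at 0, rescaling, centring, let-7a reference and, for the 8mer, any annotated 3′ UTR). The median of genes with any 7mer or 8mer was -0.09, and -0.048 against the let-7a mean. With that mean as reference, the sign turned for the lists of Wnt targets (0.015), epithelial identity (-0.018), snoRNA host genes (-0.18), actin cytoskeleton (0.058) and NKG2D ligands (-0.32), and for RAET1L (-0.42), BAMBI (0.16), SMAD7 (0.71), SPRY1 (0.15), COL6A2 (0.16), ETV1 (-0.0062), PFKL (-0.0525), KIF4A (-0.35), IFITM1 (-0.072), HSPD1 (-0.24), SNHG8 (-0.28), SP5 (-0.091) and COL1A1 (-0.018). The NKG2D ligand median was also below 0 at a mean of at least 5 TPM (-0.065), and the p53 target median of 0.0094 was -0.009 with the median of all genes set to 0. The median of the 7 microRNA host genes, -0.31, was -0.13 with a pseudocount of 5, -0.061 with no filter, -0.67 at a mean of at least 5 TPM and -0.018 against the let-7a mean. The cause was not tested for any of these.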

Other observations

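Long noncoding genes were spread more widely than protein-coding genes. Of 1183 that passed the filter, 94 (7.95%) were at least 2-fold higher with native miR-17 and 51 (4.31%) at least 2-fold lower, with a median of 0.12. Of 12250 protein-coding genes 107 (0.87%) were higher and 153 (1.25%) lower by the same rule. Pseudogenes, 401 in all, had 22 (5.49%) higher and 20 (4.99%) lower. Over all 14180 genes the shares were 1.69% higher and 1.73% lower. The classes were not matched on level.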
